A study of Mus musculus with 6 samples.

Results

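The genes described here encode the chaperones of the cytosol and of mitochondria, with their main partners and regulators, in BCR-ABL1 transformed mouse pre-B cells, a model of acute lymphoblastic leukaemia. The list was set by gene function and holds 32 genes, of which 29 were measured among 19938 genes on a whole-transcript Affymetrix array. Cells were transduced with PMIP-CRE-ERT2, a vector for a Cre recombinase that tamoxifen activates, or, as the control, with PMIP-ERT2, which lacks Cre. All cells were C57Bl/6 and carried the genotype Bcor fl/Y, a floxed Bcor allele on the only X chromosome of a male. All were selected with puromycin and received 4-hydroxytamoxifen at 0.5 micromolar for 2 days before total RNA was extracted. There were 3 arrays per group, named Cre-ERT2 and ERT2 here. Separate cultures are not stated for the arrays, so the p-values rest on array-to-array spread that may be technical. Because the ERT2 cells have no Cre, the loss of Bcor and the activity of Cre itself cannot be told apart in these groups.

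Chaperones bind unfolded or partly folded proteins and let them fold without aggregating. Hsp70 proteins work in cycles of ATP hydrolysis, which J proteins start and nucleotide exchange factors such as the Hsp110 proteins reset. Hsp90 takes clients from Hsp70, including kinases, and BCR-ABL1 is itself a known Hsp90 client. TRiC, also called CCT, is a ring of related subunits that folds actin and tubulin, and Hsp60 with Hsp10 does a like task inside mitochondria. The heat shock factors switch on many of these genes under stress by binding heat shock elements, arrays of GAA units in alternating orientation.

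The values are log2 expression values as deposited, and a level or a difference below is on that scale. Array medians over all probe sets lay between 8.61 and 8.68. Bcor, the targeted gene, was at 9.08, 9.22 and 9.18 in the Cre-ERT2 arrays, against 10.07, 10.11 and 10.17 in the ERT2 arrays. All Cre-ERT2 arrays were lower, by 0.96 in the fitted log2 value (-0.96, SE 0.0491, limma adjusted p = 2.11e-05). Of 8 pre-B markers 7 were measured, between 9.33 (Rag1) and 14.26 (Igll1), and only Rag1 of these was called, at -0.38. Of 7 measured markers of T cells, myeloid cells and erythroid cells, 1 was called. That was the lysozyme gene Lyz2, at 10.25, 10.20 and 10.18 in Cre-ERT2 arrays, against 9.67, 9.70 and 9.92 in ERT2 arrays, while the myeloid markers Itgam (0.06) and Csf1r (-0.10) were not called. The part of Lyz2-expressing cells in the results below was not tested. In bulk RNA, a change in the share of a cell type and a change in RNA per cell cannot be told apart.

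Most chaperone genes differed little between the groups. Of the 29 measured members 1 rose with Cre-ERT2, the inducible Hsp70 gene Hspa1a, and 1 fell, the Hsp90 activator Ahsa1. Calls were made by limma at a threshold of 0.05 on the p-value, after Benjamini-Hochberg adjustment over all genes. That is 6.90% of the members, beside 7.03% of all genes called (4.05% higher, 2.98% lower), so the share of members called was near the background. At an unadjusted p under 0.05 there were 7 of 29 members, beside 4584 of 19938 genes (23%). The median log2 fold change was -0.046 over the members and -0.037 over all genes, and 22 of 29 members (75.9%) had a negative value, beside 68.2% of all genes. The 95% intervals of the 27 members not called reached no lower than -0.22 and no higher than 0.22, which is 1.17-fold and 1.16-fold. Without Cre-ERT2 replicate 1, without Cre-ERT2 replicate 2 or without ERT2 replicate 3, 0 members were called, and without ERT2 replicate 1 or ERT2 replicate 2, 1 member was.

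**Figure D1:**
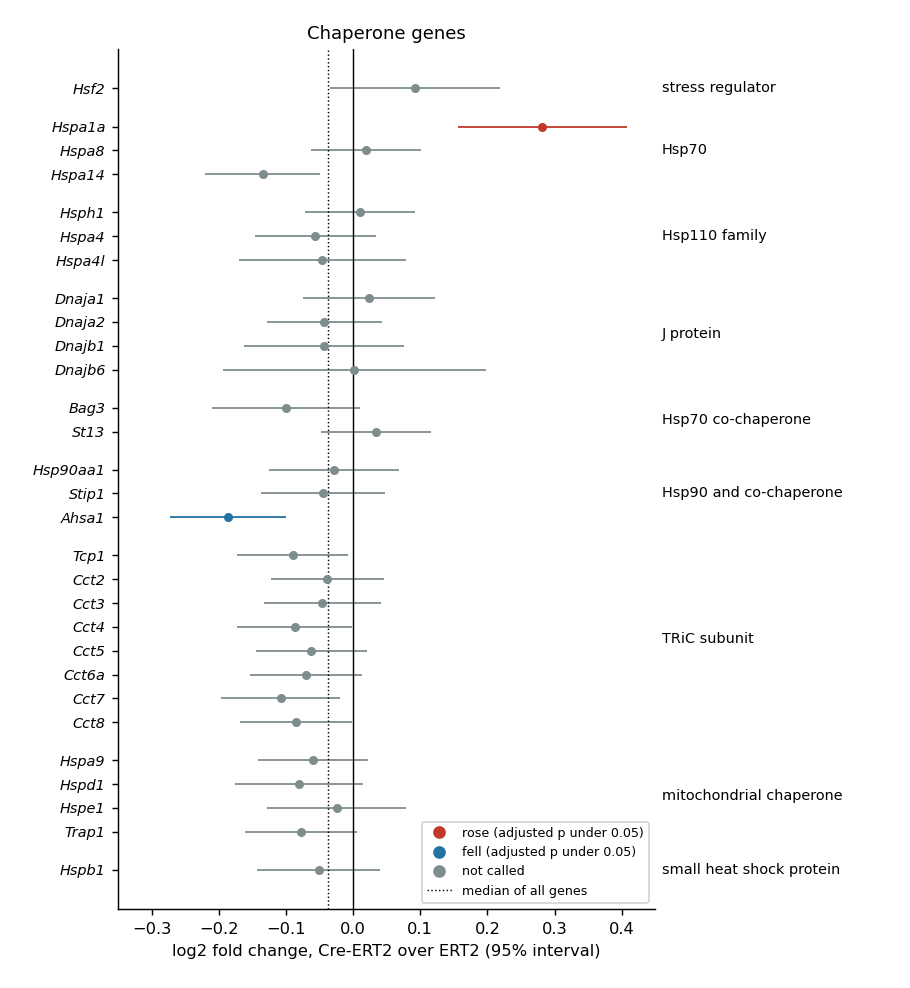
Log2 fold change (Cre-ERT2 over ERT2) of the 29 measured chaperone genes by role, with 95% intervals from the limma fit on 3 arrays per group. Hspa1a (0.28) and Ahsa1 (-0.19) are the genes past the threshold, and all 8 TRiC subunits lie left of the dotted median of all genes (-0.037), between -0.11 and -0.04.

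Among the heat shock factors, Hsf2, which can pair with Hsf1 on heat shock elements, was at 10.57, 10.58 and 10.51 in Cre-ERT2 arrays, against 10.52, 10.34 and 10.52 in ERT2 arrays. The groups overlapped, ERT2 replicate 2 was lower than the rest, and the log2 fold change was 0.09 (SE 0.0553, limma adjusted p = 0.355). Hsf1, the main stress-activated factor, and Hsp90ab1, the constitutive cytosolic Hsp90, were not analysed here.

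Hspa1a and Hspa1b are neighbouring genes on mouse chromosome 17 that encode nearly the same stress-inducible Hsp70. A probe set that names Hspa1a alone was at 9.03, 8.89 and 8.85 in the Cre-ERT2 arrays, against 8.62, 8.70 and 8.60 in the ERT2 arrays. Every Cre-ERT2 array lay above every ERT2 array, and Cre-ERT2 replicate 1 was the highest. The means were 8.92 ± 0.0945 with Cre-ERT2 and 8.64 ± 0.0563 with ERT2 (SD, n = 3 arrays each). The difference was 0.28 in log2, or 1.22-fold (SE 0.0555, limma adjusted p = 0.0185). This call ended without Cre-ERT2 replicate 1 or 2 or ERT2 replicate 1 or 3, with limma adjusted p from 0.0519 to 0.0747. The probe set was not bright, as its level lay close to the median over all genes, 8.84 to 8.87 by array. Among measured markers of other cell types, Lyz2 aside, the T cell gene Cd3e was highest, with means of 8.51 (Cre-ERT2) and 8.54 (ERT2).

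Hspa1b has no probe set of its own, but a further probe set names both genes, and it was left out of the gene table for that reason. It was at 10.57, 10.53 and 10.59 in the Cre-ERT2 arrays, against 10.27, 10.19 and 10.31 in the ERT2 arrays. The groups were apart again, and here Cre-ERT2 replicate 1 did not stand out. In a fit over 23410 probe sets with at least 1 gene name, its log2 fold change was 0.31 (SE 0.0425, limma adjusted p = 0.00446), or 1.24-fold. It stayed past the threshold with each array left out, at 0.28 to 0.33 (limma adjusted p from 0.0105 to 0.0227). This probe set was chosen after its values were seen, and it cannot divide the signal between Hspa1a and Hspa1b.

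**Figure D2:**
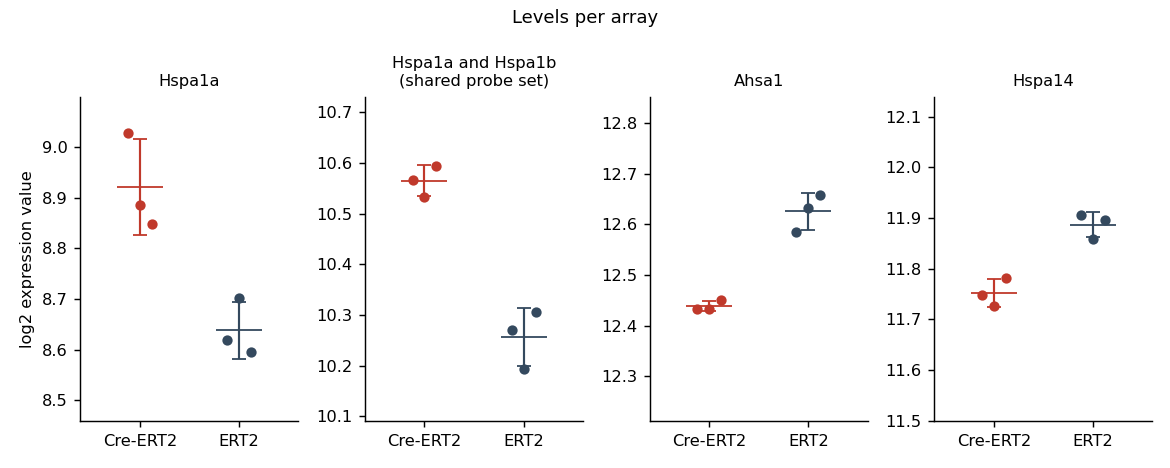
Log2 expression value in each array (points) with the mean and SD over 3 arrays per group, for Hspa1a, the probe set that names Hspa1a and Hspa1b, Ahsa1 and Hspa14. Each panel spans the same log2 range, and in each the 3 Cre-ERT2 arrays lie apart from the 3 ERT2 arrays, above them for both Hsp70 probe sets and below them for Ahsa1 and Hspa14.

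The promoters of this pair are shown because their genes share the probe set that rose. The sequences are the 250 bases before the start in RefSeq's GRCm38.p6 annotation, at chr17:34972157-34972406 for Hspa1a and chr17:34959239-34959488 for Hspa1b, both on the minus strand. Capitals mark a match to GAANNTTC, 2 inverted GAA units of a heat shock element.
Hspa1a: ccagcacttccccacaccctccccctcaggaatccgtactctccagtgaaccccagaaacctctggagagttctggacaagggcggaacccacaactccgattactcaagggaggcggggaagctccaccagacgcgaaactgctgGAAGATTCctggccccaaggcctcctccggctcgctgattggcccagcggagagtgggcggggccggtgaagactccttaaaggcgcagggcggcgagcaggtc
Hspa1b: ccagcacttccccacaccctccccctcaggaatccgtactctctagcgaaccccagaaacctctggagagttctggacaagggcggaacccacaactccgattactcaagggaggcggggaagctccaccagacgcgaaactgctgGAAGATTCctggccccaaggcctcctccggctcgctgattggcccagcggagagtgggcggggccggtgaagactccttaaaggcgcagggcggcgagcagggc
The windows share 247 of 250 bases (98.8%), and the match starts at base -104, counted from the base before the start, in both.

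The other measured Hsp70 members were not called. Hspa8, the constitutive Hsc70, was at 14.17, 14.15 and 14.14 with Cre-ERT2, against 14.14, 14.15 and 14.11 with ERT2, a log2 fold change of 0.02 with a 95% interval of -0.06 to 0.10. Its 3 probe sets ranged from -0.02 to 0.02, and 2 more that also name the small nucleolar RNAs of its introns were at -0.095 and -0.099, none of them called. Within each array, the Hspa1a value minus the Hspa8 value was higher with Cre-ERT2 by 0.26 in log2, and the groups did not overlap. An exact two-sided permutation test gave p = 0.1, the smallest that 3 against 3 arrays allow (0.3 adjusted over 3 pairs).

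Hspa14, an Hsp70 relative that works at the ribosome, was at 11.75, 11.73 and 11.78 in Cre-ERT2 arrays, against 11.91, 11.86 and 11.90 in ERT2 arrays. The groups were apart by 0.0776, more than the widest range within a group (0.0545), yet the change of -0.14 (SE 0.0376, limma adjusted p = 0.0721) did not pass.

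Of the Hsp110 genes, whose products release nucleotide from Hsp70, 0 of 3 were called by limma (0 at an unadjusted p under 0.05). Over all genes these shares were 7.03% and 23%. Hsph1, which encodes Hsp105, had a log2 fold change of 0.01, Hspa4 of -0.06 and Hspa4l of -0.05, and the groups overlapped for each of them. Hsph1 was the tightest of these, with a 95% interval of -0.07 to 0.09.

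The 4 J proteins, which hand clients to Hsp70 and start its ATPase, also gave 0 limma calls and 0 at an unadjusted p under 0.05. The shares over all genes were 7.03% and 23%. Dnajb1, the stress-inducible Hsp40, was at -0.04, Dnaja2 at -0.04 and Dnaja1 at 0.02. A further Dnaja1 probe set was also at 0.02, and a set that names Mir207 as well was at -0.03, neither of them called. The Dnajb1 value minus the Dnaja1 value differed between the groups by -0.07 (exact permutation p = 0.2, 0.3 adjusted over 3 pairs). Dnajb6, which keeps aggregation-prone proteins soluble, was at 0.00 but had the widest spread of all members (SE 0.0860), since its ERT2 arrays ranged over 0.384. Its 4 other probe sets, which also name the pseudogene Gm4247, were at 0.02 to 0.03 and none was called. They were far brighter, with group means of 13.4 to 13.6. The means of the set used were 9.09 with Cre-ERT2 and 9.08 with ERT2.

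Among the other partners of Hsp70, Bag3, an exchange factor that links Hsp70 to autophagy, was at 7.98, 8.05 and 8.07 with Cre-ERT2, against 8.12, 8.07 and 8.21 with ERT2. The groups just overlapped, and the log2 fold change was -0.10 (SE 0.0484, limma adjusted p = 0.258). St13, which encodes Hip and holds the ADP-bound state of Hsp70, was at 0.03 (limma adjusted p = 0.603). Hspb1, a small heat shock protein that holds unfolded clients without ATP, was at -0.05 (limma adjusted p = 0.476). Hspb1 had means of 8.41 with Cre-ERT2 and 8.47 with ERT2. Both it and Bag3 lay below the median over all genes, 8.84 to 8.87 by array.

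In the Hsp90 branch the fall was in Ahsa1, which encodes Aha1, the activator of the Hsp90 ATPase. Its level was 12.43, 12.43 and 12.45 in Cre-ERT2 arrays, against 12.59, 12.63 and 12.66 in ERT2 arrays. Every Cre-ERT2 array lay below every ERT2 array, with a gap of 0.136, and no range within a group was wider than 0.0727. The means were 12.44 ± 0.0099 with Cre-ERT2 and 12.63 ± 0.0368 with ERT2 (SD, n = 3 arrays each). The difference was -0.19 in log2, or 1.14-fold lower (SE 0.0378, limma adjusted p = 0.0208). This call ended without Cre-ERT2 replicate 1 or 2 or ERT2 replicate 2 or 3 (limma adjusted p from 0.0602 to 0.0923) and after median centring (0.0534).

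Hsp90aa1, the inducible cytosolic Hsp90, was at 13.69, 13.61 and 13.60 with Cre-ERT2, against 13.68, 13.62 and 13.69 with ERT2. The groups overlapped, and its 3 probe sets had log2 fold changes of -0.03 each, with a 95% interval of -0.12 to 0.07 for the set used. Stip1, which encodes HOP and bridges Hsp70 and Hsp90, was at -0.04 (limma adjusted p = 0.537).

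The 8 TRiC subunits gave 0 limma calls, with 4 at an unadjusted p under 0.05 (Tcp1, Cct4, Cct7 and Cct8), a level that 23% of all genes reached. Their log2 fold changes ran from -0.11 (Cct7) to -0.04 (Cct2), with a median of -0.078 beside -0.037 over all genes. For each of the 8 subunits every Cre-ERT2 array lay below every ERT2 array, where groups stood apart in that direction for 20.3% of all genes. The gap ran from 0.0006 for Cct3 to 0.057 for Tcp1, beside ranges within a group of up to 0.0795. Cct7 was at 12.76, 12.82 and 12.76 with Cre-ERT2, against 12.86, 12.89 and 12.92 with ERT2 (limma adjusted p = 0.143). Cct2 was at 13.63, 13.63 and 13.58 with Cre-ERT2, against 13.67, 13.63 and 13.66 with ERT2, a gap of 0.002 (limma adjusted p = 0.567).

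The other subunits were at -0.09 (Tcp1, Cct4), -0.08 (Cct8), -0.07 (Cct6a), -0.06 (Cct5) and -0.05 (Cct3). The subunits were measured in the same 6 arrays, so they are not separate replicates of the comparison. All 8 stayed negative under each scaling of the arrays that was tried. Their median ran from -0.080 with quantile normalization to -0.066 with cyclic loess. The median over all genes moved too, and was -0.040 with quantile normalization and -0.011 with cyclic loess. Only the sign was followed here, and whether the groups stayed apart under each scaling was not tested. Array medians over all probe sets ran from 8.61 to 8.68, a wider range than the largest gap between groups (0.057). The separation may therefore depend on the scaling.

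**Figure D3:**
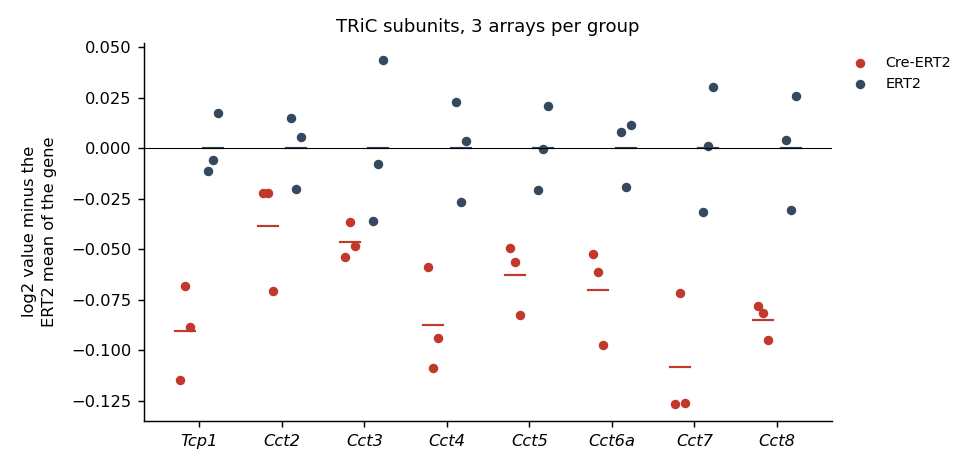
Log2 value of each TRiC subunit in each of the 3 arrays per group, minus the ERT2 mean of that gene, with short bars at the group means. In the values as deposited, the Cre-ERT2 points lie below the ERT2 points for all 8 subunits, by a gap of 0.0006 to 0.057. No subunit passed the threshold.

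Over all members, groups stood apart for 14 of 29 (48.3%), beside 29.9% of all genes. The Cre-ERT2 arrays were the higher ones for Hspa1a and St13 (2 of 29, beside 9.56% of all genes). They were the lower ones for 12 of 29 (beside 20.3%), which were Hspa14, Ahsa1, the TRiC subunits, Hspa9 and Trap1. The members were brighter than most genes, with array medians of 12.76 to 12.92, beside 8.84 to 8.87 over all genes. Their median SE was also smaller, 0.0383 beside 0.0477. Neither the members nor the TRiC subunits were compared with genes of like level and spread.

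The 4 mitochondrial chaperones all had negative log2 fold changes, beside 68.2% of all genes. By limma 0 of 4 were called (0 at an unadjusted p under 0.05), beside 7.03% (23%) of all genes. Hspa9, the mitochondrial Hsp70 that pulls proteins in through the inner membrane, was at -0.06. Trap1, the mitochondrial Hsp90, was at -0.08 (limma adjusted p = 0.242). Hspd1, which encodes Hsp60, was at 13.54, 13.49 and 13.47 with Cre-ERT2, against 13.61, 13.60 and 13.52 with ERT2, a log2 fold change of -0.08 (limma adjusted p = 0.292). Hspe1, which encodes its lid Hsp10, was at 13.29, 13.29 and 13.18 with Cre-ERT2, against 13.25, 13.32 and 13.26 with ERT2, a log2 fold change of -0.02 (limma adjusted p = 0.777). Cre-ERT2 and ERT2 arrays overlapped for both of these genes. The Hspd1 value minus the Hspe1 value differed by -0.06 (exact permutation p = 0.3, also 0.3 adjusted over 3 pairs). RefSeq lists 5 pseudogenes named after Hspd1 and 6 named after Hspe1, and 1 each named after Dnaja1, Dnajb6, Tcp1, Cct3 and Hspa9, so these probe sets may read more than 1 locus. Pseudogenes with other names, such as Gm4247, were not counted, so probe sets of other members may do so too.

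Heat shock elements were looked for in RefSeq promoters, from 250 bases before the start to 50 after it, on GRCm38.p6. A match was GAANNTTC or TTCNNGAA, which read the same on both strands. It was found for 12 of the 25 members with a promoter in the table (48%), beside 17% of 27025 genes. The longer forms with 3 units, GAANNTTCNNGAA and TTCNNGAANNTTC, which each contain the shorter ones and are the reverse complement of each other, were found for 4 members (16%), beside 0.662% of genes.

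Those 4 members were Hspd1, Hspe1, Hsph1 and Dnajb6. Stretches of 30 bases are shown for Hspe1 and Dnajb6 because they hold exact 3-unit matches, which the Hspa1a window did not. The search allowed no mismatch, so gaaactgctgGAAGATTC in Hspa1a, with tgc where TTC would stand, was not counted as a longer array. The stretch for Hspe1 lies at chr1:55088053-55088082 on the plus strand and the one for Dnajb6 at chr5:29735841-29735870 on the plus strand. Capitals mark matches to the shorter motif, and matches that overlap run together.
Hspe1: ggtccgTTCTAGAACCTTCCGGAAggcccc
Dnajb6: ctcagctccgaGAATCTTCCGGAAcgctag
The bases in capitals for Hspe1 are also the match in a promoter of Hspd1, read on the other strand. The 3-unit match of Hsph1 lies after the start, within the 50 bases searched there.

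The log2 fold changes of these 4 genes were -0.08 (Hspd1), -0.02 (Hspe1), 0.01 (Hsph1) and 0.00 (Dnajb6), and none was called. Of the 11 measured members with a shorter match 1 rose (Hspa1a) and 0 fell, with a median of -0.038 and a range of -0.10 to 0.28. Of the 13 measured members whose promoters held no match 0 rose and 1 fell (Ahsa1), with a median of -0.056 and a range of -0.19 to 0.09. Over all genes 4.05% rose and 2.98% fell, with a median of -0.037, and 1 call in each set is too few to tell the sets apart. A match is a description of these letters and does not show that a factor binds there. No match means only that these exact letters were missing from the windows searched, not that a gene has no heat shock element.

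A further list of 71 chaperones, co-chaperones and partners outside the members was set by function, and 70 of them were measured. By limma 0 of 70 were called, beside 7.03% of all genes, with 13 of 70 at an unadjusted p under 0.05, beside 23% of all genes. Their median log2 fold change was -0.043, beside -0.037 over all genes, and all values lay between -0.16 and 0.15. Among 13 Hsp90 co-chaperones, the immunophilin genes Fkbp5 and Fkbp4 had values of opposite sign. Fkbp5, which lowers the hormone affinity of steroid receptors, was at 10.81, 10.81 and 10.85 with Cre-ERT2, against 10.66, 10.67 and 10.73 with ERT2, a log2 fold change of 0.14 (limma adjusted p = 0.0746). Fkbp4 was chosen after its values were seen, and was at -0.13 (limma adjusted p = 0.0825). Neither passed the threshold.

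Among 11 prefoldin subunits and other TRiC partners, Vbp1, a subunit of prefoldin, which delivers actin and tubulin to TRiC, had the smallest p, with a log2 fold change of -0.16 (limma adjusted p = 0.138). Among 12 genes of mitochondrial protein quality control it was the protease gene Lonp1, at -0.13 (limma adjusted p = 0.0995). In the other groups these were the Hsp70 relative Hspa12b at -0.12 (limma adjusted p = 0.153), the endoplasmic reticulum J protein gene Dnajb12 at -0.15 (limma adjusted p = 0.143) and Hspb11 at -0.13 (limma adjusted p = 0.110), which is also known as an intraflagellar transport protein.

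**Figure D4:**
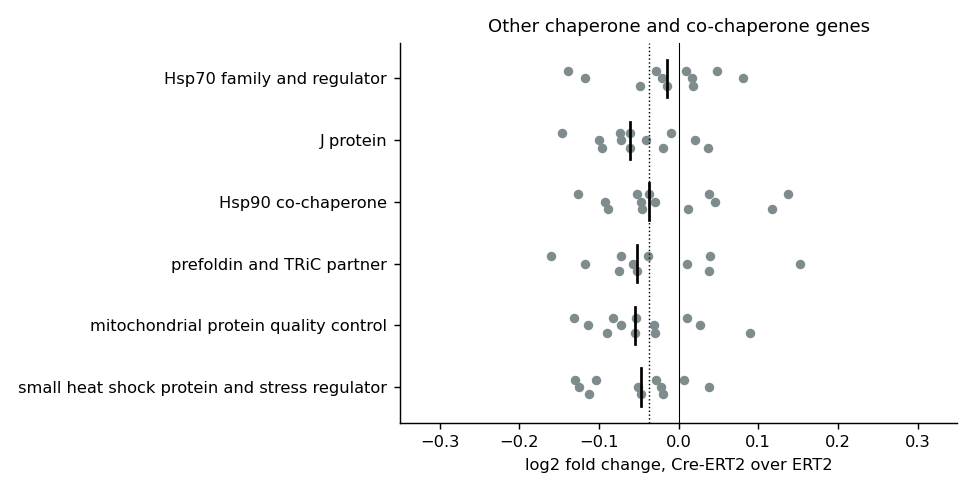
Log2 fold change (Cre-ERT2 over ERT2) of 70 other chaperone and co-chaperone genes in 6 functional groups, with 1 point per gene and a black bar at each group's median. All points lie between -0.16 and 0.15, the group medians between -0.06 and -0.01, and the dotted line is the median of all genes (-0.037).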

How the data were processed

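Each array's deposited column holds log2 expression by probe set. The submitters' processing notes name RMA and Partek 6.5 without saying what each was used for, and the genome build is not given in the sources used here. Of 35556 probe sets, 21789 had 1 gene symbol in the platform annotation and 1621 had several. Where several single-symbol probe sets named a gene, the one brightest on average over the 6 arrays stood for it, leaving 19938 genes. No probe set was called absent, since detection limits are unknown, and the number of arrays limits the precision (median SE of a log2 fold change 0.0477).

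Cre-ERT2 was compared with ERT2 by lmFit and eBayes of limma 3.58.1 (R 4.3.3), without a trend, adjusted over all 19938 genes and tested on simulated data. Intervals are 95% intervals of that fit. Python 3.11.15, pandas 2.3.3 and matplotlib 3.10.9 were used for promoters and plots. Of 5 planned pairs of related genes, 3 could be compared.

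The members and lists were chosen with earlier results of these data known. Values in every array are given for called members, the 3 uncalled members of largest absolute change, the TRiC subunits of highest and lowest change, and Hspa1a, Hsp90aa1, Hspd1 and Hspe1. The rule also named Hspa1b, Hsf1 and Hsp90ab1, for which no probe set of their own was analysed here. Each further functional group is represented by its gene of smallest p, since none was called. Array values of Hsf2 and Hspa8 were added after their values were seen. Alternatives changed the replicate block, the variance trend, array weights, array scaling, the filter on dim genes, the probe set rule, the threshold and each array left out.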

Additional observations from a re-analysis of the deposited data

How the results depend on the processing

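The number of members called, 2 in the analysis reported, was 0 with the replicate block, 1 with median centring (Hspa1a) and 5 with an intensity trend, which added Hspa14, Tcp1 and Cct7. It was between 0 and 2 with each array left out. With the replicate block, limma adjusted p was 0.0548 for Hspa1a and 0.0651 for Ahsa1. Same-numbered arrays of the groups did not deviate together (correlations of 0.051, -0.095 and -0.26), so the numbers are not taken as pairs. Hspa1a was not tested with the dimmest 50% of genes left out. The probe set of Hspa1a and Hspa1b, a choice made after seeing the data, stayed past the threshold in the 7 other settings run on it and with each array left out, at 0.28 to 0.33. Hspa14 was also called with array weights, with the dimmest 30% or 50% of genes left out and at an adjusted p under 0.1.

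Of the further chaperone genes, 0 in the analysis reported, the number called was 1 with cyclic loess, 2 with an intensity trend and with the dimmest 30% of genes left out, 3 at an adjusted p under 0.1, 4 with the dimmest 50% left out and 6 with array weights. The members with a heat shock element in a promoter numbered 4 with 3 units in place of 2, against 12. Values near 0 changed sign: Dnajb6 was at -0.041 with array weights and -0.019 with quantile normalization, Hspe1 at 0.011 with array weights, and Hspa8 at -0.00202 with quantile normalization. With each array left out, Dnajb6 ranged from -0.101 to 0.0912, Hspe1 from -0.0455 to 0.0136, Dnaja1 from -0.00572 to 0.0587, Dnajb1 from -0.0801 to 0.0037 and Hsph1 from -0.00415 to 0.0184. None of these was called.

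Over all genes, 1402 calls (808 higher, 594 lower) became 805 with the replicate block, 3339 with array weights, 2271 at an adjusted p under 0.1 and 743 to 1341 with each array left out. The balance of directions moved: array weights gave 1315 higher and 2024 lower, an adjusted p under 0.1 gave 1081 higher and 1190 lower, the replicate block 546 higher and 259 lower, and cyclic loess 962 higher and 455 lower.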
